A study of Mus musculus with 11 samples.

Results

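A set of 36 genes of ribosome biogenesis and Myc-driven growth was followed in mouse embryonic fibroblasts at the start of reprogramming. The genes were listed by name, and 34 of the 36 were measured among 19938 genes in all. Ppan and Noc2l were not analysed here, because no probe set paired with their symbol alone was found. The 34 genes fall by role into 7 of ribosomal RNA synthesis, 5 of the small nucleolar RNA-protein particles (snoRNPs), 6 of small subunit processing, 12 of large subunit assembly and 4 of growth metabolism.

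The fibroblasts came from male F1 hybrid embryos of 13.5 days post coitum. All of them carried the doxycycline-dependent transactivator rtTA at the ROSA locus and a Nanog-GFP reporter. They were transfected with piggyBac transposons (PB-TAC) together with a transposase plasmid and then received 1 ug/mL doxycycline, so both the transactivator and the drug were shared by every group. One transposon was used per culture and 1 array per construct. Polycistronic reprogramming cassettes, which encode Oct4 (Pou5f1), Sox2, Klf4 and c-Myc on 1 transcript, were carried by 8 transposons, named OSKM, OKMS, OK+9MS, OKN-HAMS, MKOS, EB-C5, STEMCCA and WTSI. Klf4 alone was carried by 2, Klf4S and Klf4L. These 10 populations were sorted for the mCherry reporter on day 6. The lacZ population was harvested unsorted on day 2. In comparisons with lacZ, the transgene therefore cannot be told apart from the day of harvest and the sorting step. Replicates here are different constructs measured once, and p-values measure the spread between constructs, not between repeated cultures.

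Ribosomes are built in the nucleolus. RNA polymerase I transcribes a long precursor RNA, snoRNPs guide its methylation and pseudouridylation, and separate sets of assembly factors cleave and fold it into the small and the large subunit. The transcription factor Myc binds E-box sequences with its partner Max and is known to raise RNA polymerase I factors, assembly factors and the enzymes of polyamine and pyrimidine synthesis in proliferating cells. Growing fibroblasts and pluripotent cells are both known for prominent nucleoli.

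The canonical E-box CACGTG, which reads the same on both strands, and the variant CACGCG, searched on both strands, were looked up in promoter windows of 300 bases from RefSeq (GRCm38.p6; 250 bases before and 50 after each gene's start). A window was found for 30 of the 36 listed genes. Rrp12, Srm, Npm1, Bop1, Fbl and Rrs1 had none. CACGTG occurred in the windows of 5 of the 30 genes (16.7%), against 8.1% of all genes with a window and 9.5% of the measured genes with one. CACGCG occurred in 12 of the 30 (40.0%), against 10.5% of all genes and 14.9% of the measured genes. The 30 include Ppan and Noc2l, which were not measured and are both among these 12. The shares of the 30 and of the measured genes are therefore not fully alike. No match of the windows by base or CG content was made, so a higher share is not read as an excess of Myc sites. The matched letters describe these windows only. The 5 CACGTG matches are shown with up to 10 bases on each side, the motif in capitals, because they are the canonical Myc site among genes whose signals moved together. They lie at chr6:125131813-125131838 (+) for Nop2, chr10:88826765-88826787 (-) for Utp20, chr11:3963967-3963992 (+) for Pes1, chr11:72441357-72441376 (+) for Mybbp1a and chr17:71616222-71616247 (+) for Wdr43.
Nop2: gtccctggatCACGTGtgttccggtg
Utp20: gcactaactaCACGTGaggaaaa
Pes1: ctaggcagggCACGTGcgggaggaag
Mybbp1a: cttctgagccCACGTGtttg
Wdr43: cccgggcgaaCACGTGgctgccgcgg

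The Nop2 match was the one on the upstream side, 60 bases before the start, and the other 4 lay within 40 bases after it. Nop2 encodes a nucleolar RNA methyltransferase of the large subunit pathway. Its 250 upstream bases (chr6:125131633-125131882, plus strand) are shown to give the match its setting, again with the motif in capitals.
Nop2 upstream: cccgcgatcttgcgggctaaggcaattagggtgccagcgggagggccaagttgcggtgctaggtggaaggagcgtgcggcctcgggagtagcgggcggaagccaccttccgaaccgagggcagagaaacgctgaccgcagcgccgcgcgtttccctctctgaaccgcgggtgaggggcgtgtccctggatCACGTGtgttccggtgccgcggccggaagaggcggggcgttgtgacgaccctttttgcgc

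For the genes with the smallest adjusted p in the comparison of the cassettes with Klf4 alone, Lyar and Tfrc, the windows held CACGCG and no CACGTG. The Lyar match lies at chr5:38220487-38220512 (+), 15 bases after the start. Tfrc had 2 matches, each set against its own listed start: one at chr16:32608769-32608794 (+), 117 bases before it, and one at chr16:32609069-32609094 (+), 43 bases before it, where the motif is read on the opposite strand.
Lyar: cctctgcgcgCACGCGcgttggcgcg
Tfrc, 117 bases before: cagccaatcgCACGCGctctcccgac
Tfrc, 43 bases before: tcgtggtcctCGCGTGgcgggcggac

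The arrays had similar distributions, with median signals over all probe sets from 7.188 to 7.269 on the log2 scale. All signals below are log2 values as deposited, so a difference of 1 is a doubling. Signals under 6 cannot be told from background in this table, and the 34 genes read between 7.35 and 13.15 on every array. Pou5f1 checked the labels of the cassettes: it read 11.89 to 13.22 there, 5.84 and 6.06 with Klf4 alone and 6.09 with lacZ. Klf4 read 9.64 to 10.20 with the cassettes, 9.93 and 9.71 with Klf4S and Klf4L and 9.47 with lacZ, so it did not set these groups apart. Sox2 read 6.22 to 7.76 with the cassettes and 6.79 with lacZ. The transcript regions that the probes read were not known, so transgene RNA and endogenous RNA cannot be told apart in these signals. The fibroblast markers Vim and Fn1 read at least 12.64 on every array, while the blood markers Ptprc and Adgre1 read under 6 and the endothelial markers Pecam1 and Cdh5 at most 6.59. Not every such marker was dim: Cd68 read 8.11 to 9.62 over the cassettes and 8.19 with lacZ, and Tek 9.05 to 10.03 over the cassettes and 6.24 with lacZ.

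The listed genes stood highest with the cassettes, lower with lacZ and lowest with Klf4 alone. Their mean signal was 10.50 ± 0.24 (SD, n = 8) with the cassettes, 9.96 with lacZ, and 9.45 and 9.47 with Klf4S and Klf4L. No cassette fell below lacZ in this mean, the lowest being MKOS with 10.13. In the plot of signals on every array the triangles of Klf4 alone form the left edge for nearly every gene.

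**Figure D1:**
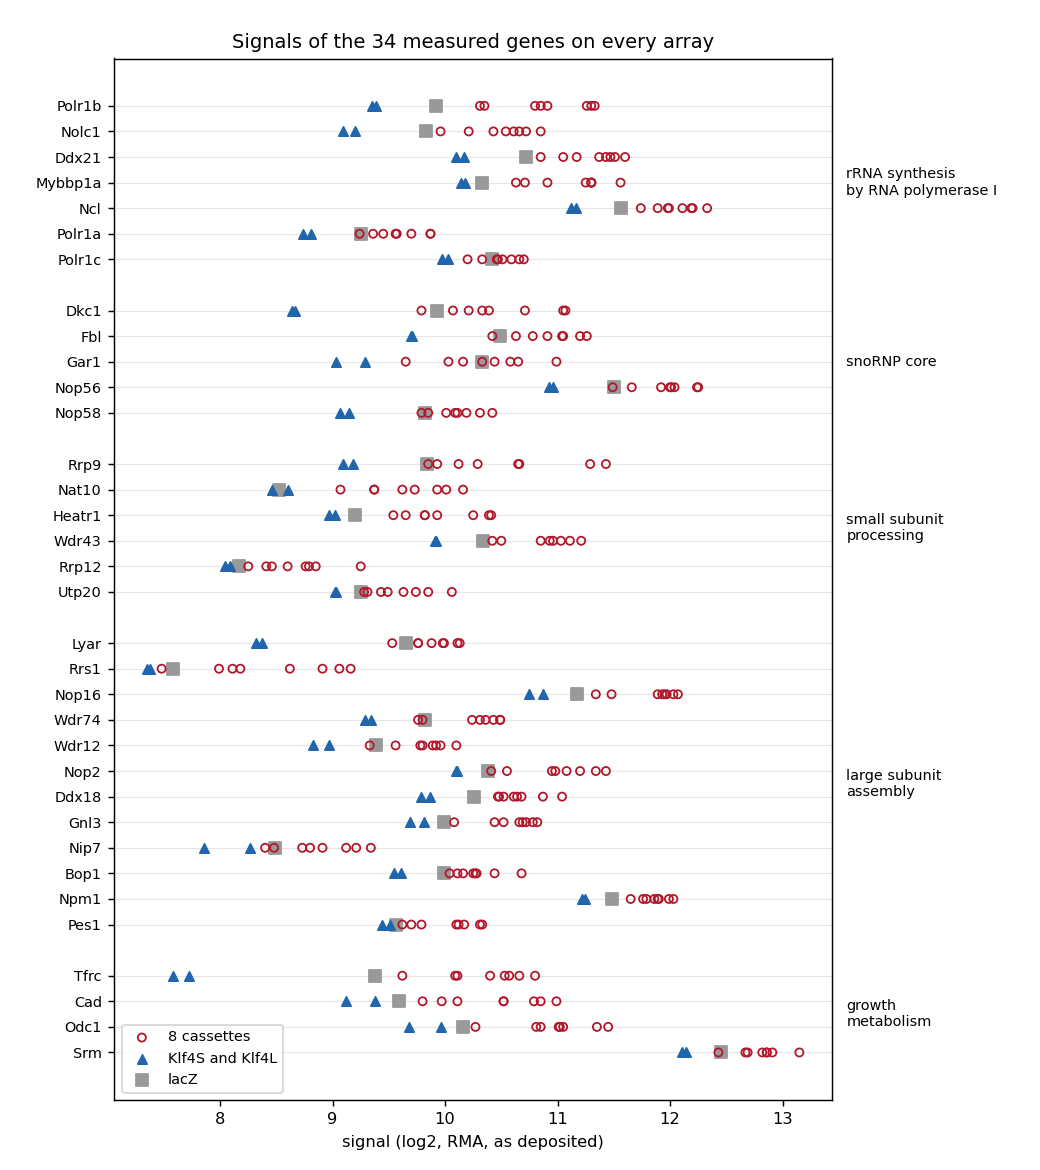
Signals (log2, RMA, as deposited) of the 34 measured genes, grouped by role, on the 8 cassette arrays (open circles), the Klf4S and Klf4L arrays (triangles) and the lacZ array (squares); each point is 1 array. For all 34 genes the 8 cassettes lie above both Klf4 arrays, and for 21 of the 34 they all lie above lacZ.

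The first question was how cells with all factors differed from cells with Klf4 alone, since both were sorted on day 6. The cassettes were higher for 29 of the 34 genes and lower for none (limma, adjusted p under 0.05 over all genes). The background was 6.35% of all 19938 genes called higher and 8.12% called lower. The median difference of the 34 genes was 0.97, against -0.02 over all genes, with a range from 0.49 for Polr1c to 2.70 for Tfrc. Every cassette exceeded both Klf4 arrays for all 34 genes, a separation found for 12.3% of all genes. The calls rested on having both Klf4 arrays. Without Klf4S or without Klf4L, 2 of the 34 were called, Lyar and Tfrc in each case, and the calls over all genes went from 2885 to 104 or 92, while the median of the 34 stayed at 0.96 and 0.98. Klf4S and Klf4L were also the most alike pair of arrays, with an SD of their differences over all genes of 0.126 against 0.214 for the next pair, OSKM and OK+9MS.

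All 7 genes of ribosomal RNA synthesis rose against Klf4 alone, by a median of 0.96. Polr1b, the second-largest subunit of RNA polymerase I, read 10.31 to 11.33 with the cassettes (median 10.88), 9.39 and 9.35 with Klf4S and Klf4L and 9.92 with lacZ. The groups did not overlap, and the difference from Klf4 alone was 1.52 ± 0.27 (SE), a 2.87-fold change with an adjusted p of 0.011. Nolc1, a nucleolar phosphoprotein that binds snoRNPs and the polymerase, read 9.96 to 10.85 (median 10.57) with the cassettes, 9.20 and 9.09 with Klf4 alone and 9.83 with lacZ. It too separated the groups without overlap, with a difference of 1.35 ± 0.20 from Klf4 alone. Ddx21, an RNA helicase that acts on polymerase I transcription and on rRNA processing, differed by 1.17 ± 0.18. The nucleolar proteins Mybbp1a and Ncl (nucleolin) differed by 0.96 ± 0.22 and 0.91 ± 0.13. The largest subunit Polr1a differed by 0.81 ± 0.16. Polr1c, a subunit shared with RNA polymerase III, had the smallest called difference of the 34 genes: it read 10.20 to 10.70 with the cassettes, 10.03 and 9.97 with Klf4 alone, and 10.42 with lacZ, inside the range of the cassettes.

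The snoRNP core genes rose as well, all 5 of 5, by a median of 1.19. Dkc1 encodes dyskerin, the pseudouridine synthase that also binds telomerase RNA. It read 9.79 to 11.07 with the cassettes (median 10.36), 8.67 and 8.64 with Klf4 alone and 9.93 with lacZ. Both Klf4 arrays lay more than 1 log2 unit below the lowest cassette, MKOS, and the difference was 1.80 ± 0.31 (SE), or 3.47-fold, with an adjusted p of 0.00939. Gar1, which joins dyskerin in the same particles, differed by 1.19 ± 0.28. The rRNA methyltransferase fibrillarin (Fbl) read 10.42 to 11.26 with the cassettes, 9.71 and 9.70 with Klf4 alone and 10.49 with lacZ, a difference of 1.21 ± 0.20 from Klf4 alone. Its scaffold partners Nop56 and Nop58 differed by 1.01 ± 0.18 and 0.98 ± 0.15.

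Of the small subunit genes 4 of 6 rose. Rrp9, a protein of the U3 snoRNP that directs early cleavage of the precursor, was the most variable of all the listed genes across the cassettes. It read 11.43 with OKMS and 11.29 with OK+9MS but 9.85 with EB-C5 and 9.93 with STEMCCA, against 9.09 and 9.18 with Klf4 alone. Its difference of 1.39 ± 0.40 passed narrowly, with an adjusted p of 0.0483. Nat10, the RNA cytidine acetyltransferase of the small subunit rRNA, read 9.07 to 10.16 with the cassettes, 8.60 and 8.46 with Klf4 alone and 8.52 with lacZ. It was the one gene of the 34 for which lacZ lay between both Klf4 arrays rather than above them. Heatr1 and Wdr43, components of the early processing complex, differed from Klf4 alone by 0.98 ± 0.23 and 0.97 ± 0.19. Rrp12 (0.61 ± 0.21, adjusted p = 0.0844) and Utp20 (0.58 ± 0.19, adjusted p = 0.0659) did not pass.

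Large subunit assembly gave 9 of 12 genes called higher. Lyar, a nucleolar zinc finger protein of growing cells, had the smallest adjusted p of the set: it read 9.53 to 10.13 with the cassettes (median 9.93), 8.37 and 8.32 with Klf4 alone and 9.65 with lacZ. The gap between the lowest cassette and the higher Klf4 array was 1.16, and the difference was 1.54 ± 0.14 (SE), or 2.92-fold, with an adjusted p of 0.000769. Nop16, a late-binding nucleolar factor, read 11.34 to 12.07 with the cassettes, 10.75 and 10.87 with Klf4 alone and 11.17 with lacZ, a difference of 1.03 ± 0.19. Members of the PeBoW complex, which processes the large subunit precursor, did not all pass. Wdr12 differed by 0.89 ± 0.17 and Bop1 by 0.70 ± 0.14, whereas Pes1 at 0.54 ± 0.19 had an adjusted p of 0.0854. Nop2, whose upstream window is printed above, differed by 0.88 ± 0.24 with an adjusted p of 0.041. Wdr74 (0.92 ± 0.20), the helicase Ddx18 (0.84 ± 0.14), nucleostemin (Gnl3, 0.84 ± 0.17) and the histone chaperone nucleophosmin (Npm1, 0.63 ± 0.09) also rose. Nip7 missed the threshold at 0.81 ± 0.24 (adjusted p = 0.0531), and its Klf4 arrays differed from each other by 0.40. Rrs1, which brings the 5S particle into the large subunit, read from 7.48 with OSKM to 9.16 with WTSI and missed it too, at 1.07 ± 0.40 (adjusted p = 0.102).

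All 4 growth metabolism genes rose. Tfrc encodes the transferrin receptor, the cell's main route of iron uptake, and moved most of all the listed genes. It read 9.62 to 10.80 with the cassettes (median 10.46), 7.58 and 7.72 with Klf4S and Klf4L, and 9.38 with lacZ. Each cassette exceeded both Klf4 arrays by at least 1.90, and the difference was 2.70 ± 0.26 (SE), or 6.49-fold, with an adjusted p of 0.00093. Odc1, ornithine decarboxylase, the first enzyme of polyamine synthesis, read 10.27 to 11.45 with the cassettes, 9.68 and 9.96 with Klf4 alone and 10.16 with lacZ, a difference of 1.16 ± 0.25. Srm, spermidine synthase, the next step of that pathway, differed by 0.67 ± 0.15. Cad, which carries the opening steps of pyrimidine synthesis, differed by 1.19 ± 0.30.

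Against lacZ the median difference was smaller. None of the 34 passed in the cassettes (background 0.456% called higher and 1.59% lower), although all 34 differences were above 0, with a median of 0.49 against -0.01 over all genes. At an unadjusted limma p under 0.05, 12 of the 34 were higher and none lower (5.21% and 10.3% of all genes), and in 21 of the 34 every cassette exceeded lacZ (13.3% of all genes). The differences ran from 0.02 for Gar1, which turned to -0.01 when arrays were centred on their median, to 1.14 ± 0.34 (SE) for Nat10, whose adjusted p of 0.138 was the smallest. Polr1b and Tfrc, each 0.97, followed. Without MKOS 1 of the 34 was called.

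Klf4 alone gave the opposite side of lacZ, with a median of -0.42 against 0 over all genes. Lyar fell by 1.30 ± 0.22 (SE; adjusted p = 0.0329), 1 call among the 34 where 0.476% of all genes were called lower. That call was lost with the compared groups alone, after a further quantile normalization and without OSKM, OK+9MS, WTSI, Klf4S or Klf4L. At an unadjusted limma p under 0.05, 7 of the 34 were lower and none higher, against 6.32% and 5.16% of all genes. That count changed with the arrays in the fit. It fell without Klf4S or without Klf4L, and rose without OKMS. It rose most with the compared groups alone, where the spread came from Klf4S and Klf4L only. No share over all genes is given for those settings, so the changes are not read further. For 33 of the 34 genes both Klf4 arrays read below lacZ, as 40.6% of all genes did. Tfrc differed by -1.73 ± 0.41 (adjusted p = 0.0997), Dkc1 by -1.27 ± 0.48 and Gar1 by -1.17 ± 0.44, none of which passed. The exception was Nat10, at 0.02 ± 0.39, a value that turned to -0.02 after centring of the arrays. All 3 comparisons share arrays, the comparisons with lacZ share its single array, and their values are therefore given side by side only.

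**Figure D2:**
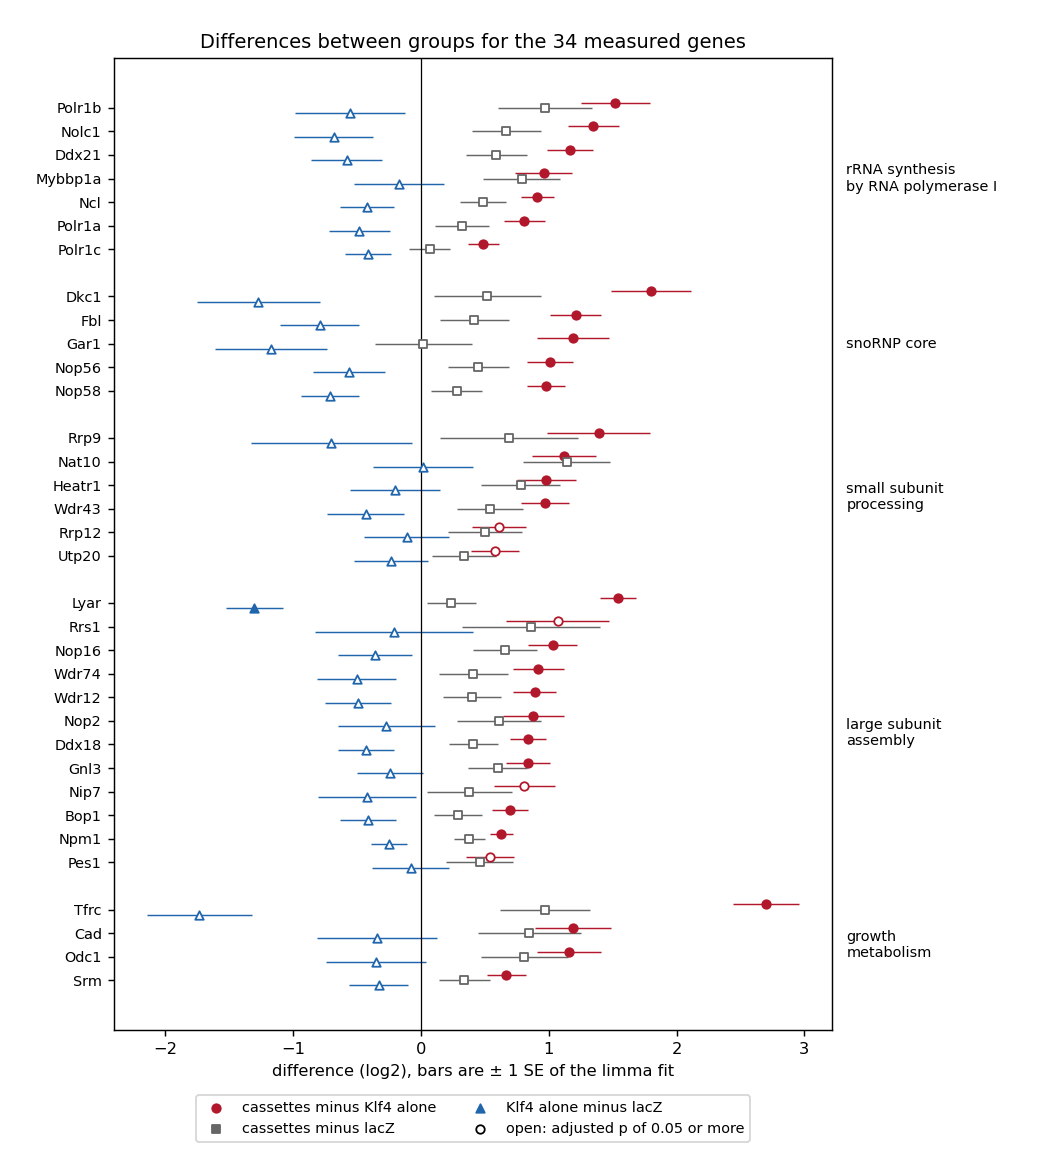
Differences (log2) of the 34 genes in the cassettes against Klf4 alone (circles), the cassettes against lacZ (squares) and Klf4 alone against lacZ (triangles), with bars of 1 SE of the limma fit; filled symbols have an adjusted p under 0.05. Filled circles are 29 of 34, no square is filled, and Lyar is the 1 filled triangle.

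Genes that mark dividing cells moved with this set. Of 15 proliferation markers, among them Mki67, Top2a and the Mcm genes of the replicative helicase, all 15 rose in the cassettes against Klf4 alone, by a median of 1.84. In that comparison 6.35% of all genes were called higher and 8.12% lower. Against lacZ the cassettes gave a median of 0.00 and no call, where 0.456% of all genes were called higher and 1.59% lower. Klf4 alone gave a median of -1.99 with 3 called lower, where 0.476% of all genes were. The mean of the proliferation markers was 9.82 with MKOS, 10.51 to 11.14 with the other cassettes, 8.76 and 8.77 with Klf4 alone and 10.59 with lacZ. So lacZ cells read within the range of the cassettes for these markers, while for the listed genes they read below all 8 in the mean. The 10 fibroblast markers went the other way, with 2 (Col3a1 and Col1a2) called lower in the cassettes than with Klf4 alone and a median of -0.88. Their mean was 11.66 with MKOS and 11.78 with STEMCCA, 10.86 to 11.26 with the other cassettes, 12.06 and 12.01 with Klf4 alone and 11.40 with lacZ. Of 6 epithelial markers 1 rose, Epcam by 3.12 ± 0.89, and the list had a median of 1.57. In lists this short, 2 of 10 lower and 1 of 6 higher are hardly set apart from 8.12% and 6.35% of all genes. Cassettes were split in the mean of the 6 epithelial markers. It was 9.02 to 10.76 with OSKM, OKMS, OK+9MS, MKOS and OKN-HAMS, but 7.49 with WTSI, 7.66 with EB-C5 and 7.98 with STEMCCA. It was 7.62 and 7.82 with Klf4 alone and 6.94 with lacZ. The part of cell division and of cell makeup in the differences was not tested, and in such bulk samples fewer cells of a type and less RNA per cell cannot be told apart.

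The rest of the pathway was read from lists that did not include the 36 genes. Among 100 other ribosome biogenesis genes, 59 rose in the cassettes against Klf4 alone and none fell, with a median of 0.69. Over all genes 6.35% were called higher in that comparison and 8.12% lower. The 59 split into 7 of 13 RNA polymerase I genes, 23 of 39 small subunit genes, 23 of 37 large subunit genes and 6 of 11 snoRNP genes. Examples were Taf1d (1.58 ± 0.21), a subunit of the promoter selectivity factor of RNA polymerase I, Rrp1b (1.54 ± 0.30), a nucleolar assembly factor, and Nhp2 (1.54 ± 0.28), a partner of dyskerin. Of 12 exosome genes, which trim the precursor ends, 4 rose, led by Exosc8 (1.41 ± 0.21). None of the 100 genes, and none of the 12, passed against lacZ in either group. Over all genes 0.456% were called higher and 1.59% lower in the cassettes, and 0.271% and 0.476% with Klf4 alone. Of the 100 genes, 97 had a difference from lacZ above 0 in the cassettes and 15 with Klf4 alone. Over all 19938 genes these counts were 9065 and 9873.

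Ribosomal protein genes, the structural parts of the ribosome, differed little, with a median of 0.14 against Klf4 alone. Of 78 listed, 54 were measured. Against a background of 6.35% of all genes called higher, 3 of the 54 rose (Rpl12 by 0.83 ± 0.22, Rpl30 by 0.50 ± 0.13, Rps3 by 0.24 ± 0.07). The mean of the 54 was 11.76 to 12.07 with the cassettes, 11.75 on both Klf4 arrays and 11.73 with lacZ. Among 30 other metabolic and growth targets of Myc, 13 rose, with a median of 0.54. The largest were Ppat (2.18 ± 0.26), the entry enzyme of purine synthesis, Polr3g (2.13 ± 0.39), a subunit of RNA polymerase III, Shmt1 (1.68 ± 0.36), an enzyme of one-carbon metabolism, and Rcc1 (1.39 ± 0.30), the exchange factor of Ran. The 11 polyamine and iron genes that accompany Odc1, Srm and Tfrc had a median of -0.43. In that list 3 fell, where 8.12% of all genes were called lower. The 3 were Oaz2 (-0.91 ± 0.19), an antizyme that targets ornithine decarboxylase, Smox (-0.60 ± 0.14), which oxidizes spermine, and Ftl1 (-0.44 ± 0.10), the light chain of the iron store ferritin.

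**Figure D3:**
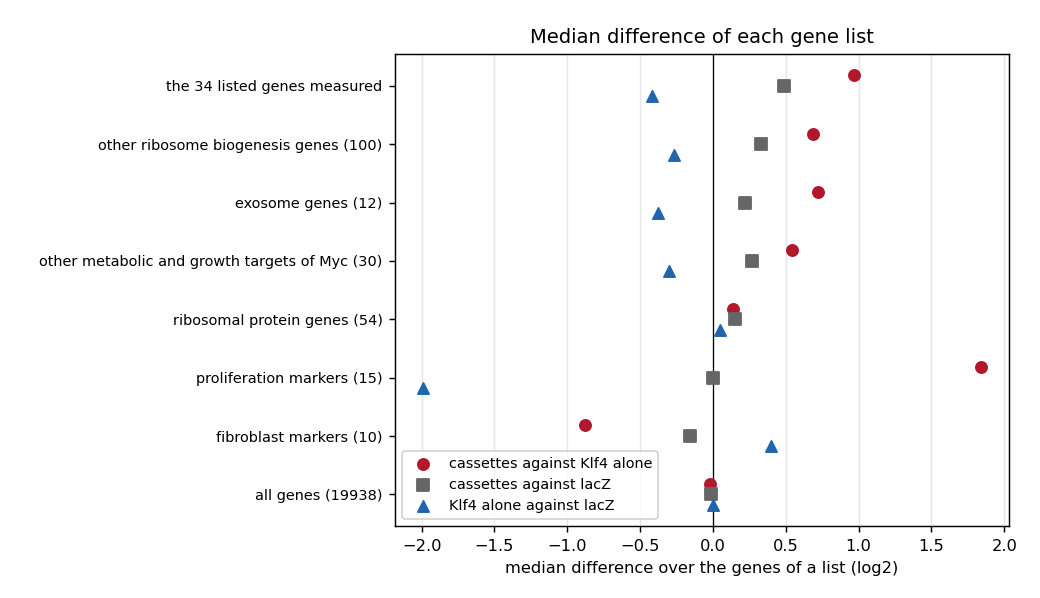
Median difference (log2) of the 34 genes, of the other lists and of all 19938 genes in the cassettes against Klf4 alone (circles), the cassettes against lacZ (squares) and Klf4 alone against lacZ (triangles), with the number of genes measured in each list. The 34 genes have medians of 0.97, 0.49 and -0.42, while the ribosomal protein genes stay between 0.05 and 0.15.

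Cassettes differed among themselves, with no replicate of any one construct. The mean of the 34 genes was 10.81 with OKMS, 10.72 with EB-C5, 10.59 with OK+9MS and OKN-HAMS, 10.57 with WTSI, 10.41 with OSKM, 10.18 with STEMCCA and 10.13 with MKOS. OKMS gave the highest of the 8 values for 15 genes and EB-C5 for 10, whereas MKOS gave the lowest for 19 and STEMCCA for 10. MKOS exceeded lacZ for 23 of the 34 genes and STEMCCA for 29, while each of the other 6 did so for at least 33. The genes varied more over the cassettes than others did, with a median SD of 0.28 against 0.16 over all genes. They also moved together, with a median correlation of 0.70 between pairs of the 34 genes over the 8 arrays. Of the 561 pairs 96.8% were above 0. Over all pairs of genes the values were 0.01 and 50.9%. All genes include dim ones here, and no match by signal level was made.

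One pair of cassettes differs in name by the +9 next to Klf4. OK+9MS minus OKMS was below 0 for 31 of the 34 genes, with a median of -0.21, against 45.7% of all genes below 0. The values ran from -0.88 for Cad to 0.43 for Odc1. Between Klf4L and Klf4S the median was -0.01, with 19 of the 34 below 0 and 56.6% of all genes. Each side of these contrasts is 1 array, so they had no replicate check.

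The signals of the factors themselves were set beside the genes over the 8 cassettes. Myc read 10.66 with OSKM, 10.76 with OKMS, 10.91 with OK+9MS, 10.64 with MKOS, 10.49 with STEMCCA, 9.86 with EB-C5, 10.77 with WTSI and 10.86 with OKN-HAMS. It read 9.05 and 8.65 with Klf4S and Klf4L and 9.54 with lacZ, with a difference of 1.77 ± 0.24 (SE; adjusted p = 0.00382) between the cassettes and Klf4 alone. Its differences from lacZ did not pass, at 1.08 ± 0.32 (adjusted p = 0.138) for the cassettes and -0.69 ± 0.37 (adjusted p = 0.545) for Klf4 alone. EB-C5 stood apart with the lowest Myc signal among the cassettes and the second-highest mean of the 34 genes. In the order above Pou5f1 read 12.73, 13.22, 13.01, 12.29, 11.89, 12.94, 12.88 and 13.12. STEMCCA and MKOS were lowest in Pou5f1 as in the mean of the 34 genes, and OKMS was highest in both. The signals of Myc and Pou5f1 were not clearly related to each other over the 8 arrays (Pearson's r = 0.20, exact permutation p = 0.627). Spearman's rho was 0.57 (exact permutation p = 0.151). Without STEMCCA and MKOS, the arrays farthest from the median Pou5f1 signal, r was 0.22.

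With Pou5f1, r was above 0 for 33 of the 34 genes, as it was for 55.5% of all genes, and the median r was 0.76. By exact permutation of the 8 arrays, 22 of the 34 had r above 0 with an unadjusted p under 0.05, where 5.67% of all genes did. None passed after adjustment over 19937 genes, the smallest adjusted p being 0.155. Spearman's rho had a median of 0.70, with 16 unadjusted exact p-values under 0.05 and a smallest adjusted p of 0.268. Wdr74, a factor of large subunit assembly, had the highest r, 0.96 (exact permutation p = 0.000769; rho = 0.95, exact permutation p = 0.00114), followed by Ddx21 at 0.94 and Nop16 at 0.93. Npm1 alone was below 0, at -0.06. The limma slopes on Pou5f1 had a median of 0.54 log2 units per unit of Pou5f1. They passed for 3 genes, Wdr74 (0.62 ± 0.08, adjusted p = 0.0304), Ddx21 (0.54 ± 0.08, adjusted p = 0.0458) and Nop16 (0.55 ± 0.09, adjusted p = 0.0472), where 0.231% of all genes were called with a slope above 0 and 0.647% with one below. At an unadjusted limma p under 0.05, 24 of the 34 had a slope above 0, against 6.15% of all genes. All 3 calls were lost with an intensity trend in the prior variance and on leaving out any 1 cassette other than EB-C5. Nop16 was also lost without EB-C5 and with Myc as a second term. Ddx21 and Nop16 were lost among genes above the median level and after a further quantile normalization. Other listed genes were gained, so the count was 3 without EB-C5 and 4 with Myc as a second term. Over all genes 162 and 198 were then called in either direction, against 175 in the main fit. With 1 array left out, the median slope of the 34 genes lay between 0.44 and 0.67. Over all 8 cassettes, slopes on Pou5f1 above 0 were not particular to the listed genes. They were found for 95 of 100 other ribosome biogenesis genes (median 0.38), 12 of 12 exosome genes (0.43) and 15 of 15 proliferation markers (0.47). Of 54 ribosomal protein genes 38 had one (median 0.06), and of 10 fibroblast markers 0 did (median -0.67).

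STEMCCA and MKOS lay farthest from the median Pou5f1 signal. Without them the median r was 0.55, and 31 of the 34 genes had r above 0, Npm1 (0.17) now among them. Wdr74 (0.97), Mybbp1a (0.91) and Fbl (0.83) related to Pou5f1 among the 6 remaining arrays as well. For Nop16 (0.09), Dkc1 (0.04), Gar1 (-0.02), Gnl3 (-0.02) and Tfrc (-0.05) the relation rested on those 2 arrays. The same arrays also had the 2 highest means of the fibroblast markers among the cassettes, and MKOS the lowest mean of the proliferation markers, whose part in the relation was not tested.

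With Myc, r was above 0 for 11 of the 34 genes (46.9% of all genes), with a median of -0.11, and none had an exact permutation p under 0.05 together with r above 0 (background 3.08%). The smallest adjusted p was 0.721. Spearman's rho was above 0 for 29 genes with a median of 0.18, and 2 had an unadjusted exact p under 0.05, Polr1c (rho = 0.83, exact permutation p = 0.0154) and Rrp9 (rho = 0.74, exact permutation p = 0.0458). No limma slope on Myc passed (background 0.0%), and 1 of the 34, Rrp9 with 1.17 ± 0.50, had an unadjusted limma p under 0.05, where 3.53% of all genes did with a slope above 0 and 4.99% with one below. EB-C5 decided these values. Without it, 33 of the 34 genes had r above 0 with Myc (55.7% of all genes), the median r was 0.66 against 0.09 over all genes, and the median slope was 1.39. The unadjusted count of 1 also rose without EB-C5, still with no adjusted call. No share over all genes is given for that setting, so the rise in the count is not read further. Without EB-C5 and STEMCCA, the arrays farthest from the median Myc signal, the median r was 0.52. Among the cassettes other than EB-C5, STEMCCA and MKOS were lowest in Myc (10.49 and 10.64) as in Pou5f1 (11.89 and 12.29). The relation to Myc without EB-C5 was therefore not separated from that to Pou5f1, whose part in it was not tested.

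**Figure D4:**
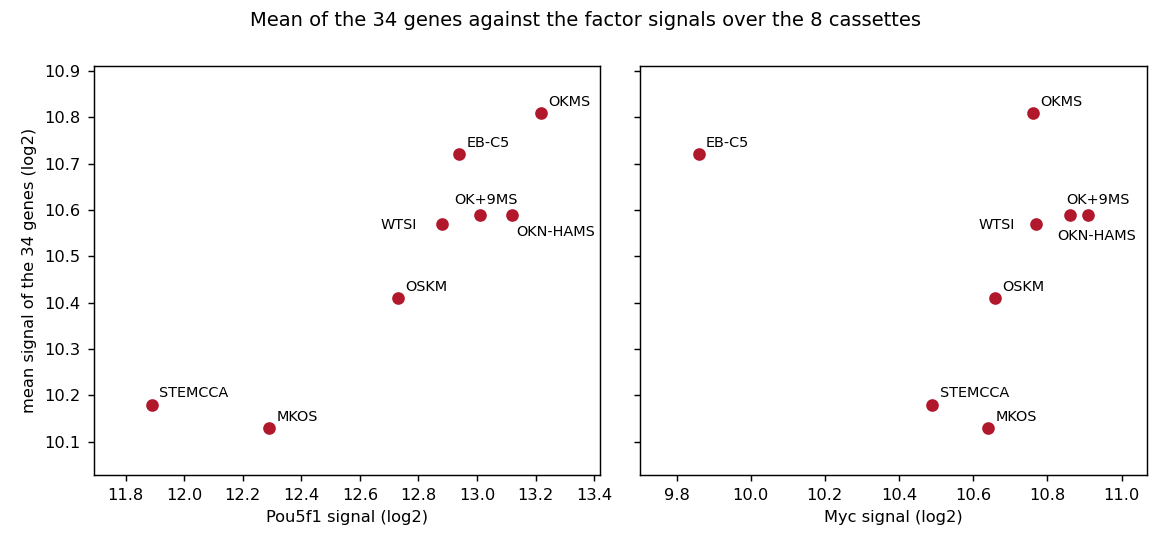
Mean signal (log2) of the 34 genes against the signals (log2) of Pou5f1 (left) and Myc (right) on the 8 cassette arrays, 1 labelled point per construct. The points rise with Pou5f1 from STEMCCA and MKOS to OKMS (r = 0.92), and with Myc EB-C5 lies apart at 9.86 (r = -0.05 over all 8).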

How the data were processed

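RNA from 11 populations was hybridised to Affymetrix mouse gene arrays, 1 per construct. The deposited values are log2 signals that the authors made with RMA, per the submitters' processing notes, which name no version. RMA evens out the distributions of arrays and can understate large differences. Of 28856 probe sets, 21789 had 1 gene symbol, 1621 several and 5446 none; only the first were used, with the highest-mean probe set kept for the 999 genes that had more than 1, leaving 19938 genes. Dim genes were not filtered out.

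The 8 cassettes, 2 Klf4 constructs and lacZ were fitted as 3 groups with limma 3.58.1 (lmFit, eBayes; R 4.3.3; 8 residual degrees of freedom), with Benjamini-Hochberg adjustment over all genes and calls at an adjusted p under 0.05. The lone lacZ array was assumed to vary like the others. Over the 8 cassettes, slopes on the Myc and Pou5f1 signals were fitted with limma (6 residual degrees of freedom), beside Pearson's r and Spearman's rho with two-sided exact p-values over all 40320 pairings (scipy 1.17.1), adjusted over the 19937 other genes. The scripts were tested on simulated data. Alternatives covered the probe set rule, dim genes, the arrays in the fit, the prior variance, 2 normalizations, a second factor and each array left out.

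All listed genes could be named, and from each other list up to 4 called genes with the largest difference between the cassettes and Klf4 alone. The listed genes and the other lists were chosen with earlier results of these data known.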

Additional observations from a re-analysis of the deposited data

Results flagged for a closer look

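Among the signals set beside the listed genes, 2 had 1 cassette far from the other 7, with a gap to the nearest array that is a larger share of the whole range than Dixon's 95% critical value for 8 samples. Myc read 9.86 with EB-C5, where the nearest cassette read 10.49, a gap of 0.596 of the range. Sox2 read 7.76 with WTSI, where the nearest read 6.88, a gap of 0.571 of the range. None of the 34 listed genes had such an array, and 1862 of 19938 genes (9.3%) did. Chance gives about 1 in 20.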

How the results depend on the processing

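With each array its own construct there was no repeat culture, and the precision is limited by the number of arrays: 2 for Klf4 alone and 1 for lacZ. No paired analysis was possible because each construct has 1 array and the replicate numbers follow the order of deposit. The count of listed genes higher in the cassettes than with Klf4 alone was 29 to 31 under the other settings that kept all arrays, and 2 to 31 with 1 array left out, the 2 being without Klf4S or without Klf4L. Against lacZ the cassettes gave 0 to 1 with 1 array left out and Klf4 alone 0 to 2; the 1 call in Klf4 alone became 0 with the compared groups alone and 0 after a further quantile normalization. The calls for the slope on Pou5f1, 3 in the main fit, became 0 with an intensity trend and 0 to 3 with 1 array left out. They became 4 with the mean of probe sets per gene and 4 with Myc as a second term. Calls for the slope on Myc stayed at 0. The causes were not tested. Some values changed sign. Gar1 in the cassettes against lacZ read -0.01 after centring and -0.07 to 0.12 with 1 array left out. Nat10 with Klf4 alone against lacZ read -0.00 after quantile normalization, -0.02 after centring and -0.05 to 0.09 with 1 array left out. The slope of Npm1 on Pou5f1 read 0.02 and 0.04 under those normalizations and -0.08 to 0.03 with 1 array left out, and the slope of Dkc1 on Myc, -0.62 over all 8 cassettes, -0.76 to 0.39, the last without EB-C5. In the 3 group comparisons no scaling moved the median of all genes by more than 0.05; that of the slopes on Myc went from -0.01 to -0.08 after centring.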
